A study of Homo sapiens with 131 samples.

Results

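The regions described here are the 40-kb bins of the genome that almost no cell had copied by the time it was sorted from the middle of S phase. HAP1 is a nearly haploid human cell line. Single HAP1 cells in mid-S were sorted and processed with the scRR1 protocol, in which DNA bound to beads and RNA left in the supernatant of the same cell are sequenced as separate libraries, and the labels name no drug or genetic change. A DNA and an RNA library that carry 1 cell number come from 1 cell, and all 56 cells of the tables belong to 1 group from 1 biological experiment. In each cell a bin is called 1-copy (not yet replicated), 2-copy (replicated) or without a call. A bin was selected when at most 5% of the cells with a call were 2-copy and at least 28 cells had a call, on chromosomes 2, 3, 5, 7, 9, 10, 11, 12, 14, 16 and 20. This gave 4743 of 36142 bins on these 11 chromosomes (13.1%, 189.7 Mb), out of 56881 bins in the whole table. Because the copy states chose the bins, every low 2-copy share below is a description of that choice and not a finding.

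DNA replication starts at origins that fire at different times, and neighbouring origins tend to fire together, so that long stretches of a chromosome share a replication time. Regions copied early are in general rich in genes and transcribed, whereas regions copied late tend to be gene-poor, AT-rich and packed as heterochromatin near the nuclear lamina. Late regions of human cells typically hold long genes of the nervous system and clusters of receptor genes that most tissues keep silent.

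The promoters of 6 genes that lay whole inside the selected regions show how different the genes held there are. They are printed 5′ to 3′ on the gene's own strand, from 250 bases before to 50 bases after the start site (RefSeq, GRCh38.p14), with each CG dinucleotide in capitals. COX7C (cytochrome c oxidase subunit), TXN (thioredoxin) and AASDHPPT (an enzyme that attaches phosphopantetheine to carrier proteins) were among the genes with most RNA. GRM7 (a metabotropic glutamate receptor) and OPCML (a cell adhesion molecule of neurons) were among the longest, and OR5AS1 is an olfactory receptor gene.
COX7C, chr5:86617691-86617990, plus strand: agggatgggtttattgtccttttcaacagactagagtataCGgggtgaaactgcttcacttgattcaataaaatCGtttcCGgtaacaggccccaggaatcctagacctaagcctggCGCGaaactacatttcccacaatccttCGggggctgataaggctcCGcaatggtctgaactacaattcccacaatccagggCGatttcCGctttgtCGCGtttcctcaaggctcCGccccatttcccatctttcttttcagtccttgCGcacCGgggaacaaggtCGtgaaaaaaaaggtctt
TXN, chr9:110256458-110256757, minus strand: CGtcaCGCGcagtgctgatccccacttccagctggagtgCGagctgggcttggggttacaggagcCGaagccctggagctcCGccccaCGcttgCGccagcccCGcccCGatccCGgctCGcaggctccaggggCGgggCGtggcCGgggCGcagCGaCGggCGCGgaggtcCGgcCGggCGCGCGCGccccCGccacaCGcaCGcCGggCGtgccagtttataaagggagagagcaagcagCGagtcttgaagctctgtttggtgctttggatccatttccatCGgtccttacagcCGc
AASDHPPT, chr11:106077412-106077711, plus strand: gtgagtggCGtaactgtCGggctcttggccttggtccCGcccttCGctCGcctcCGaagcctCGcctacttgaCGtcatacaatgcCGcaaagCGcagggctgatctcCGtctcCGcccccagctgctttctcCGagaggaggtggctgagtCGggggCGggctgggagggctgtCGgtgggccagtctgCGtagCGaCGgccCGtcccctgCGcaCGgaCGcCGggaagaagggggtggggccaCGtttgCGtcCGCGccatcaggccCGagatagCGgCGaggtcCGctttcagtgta
GRM7, chr3:6860865-6861164, plus strand: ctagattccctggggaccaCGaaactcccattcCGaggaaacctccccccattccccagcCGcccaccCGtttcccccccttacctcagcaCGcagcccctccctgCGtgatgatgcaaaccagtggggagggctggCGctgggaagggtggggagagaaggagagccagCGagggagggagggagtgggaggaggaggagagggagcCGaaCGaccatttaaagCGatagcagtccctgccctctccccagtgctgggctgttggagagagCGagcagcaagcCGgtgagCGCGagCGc
OPCML, chr11:133532452-133532751, minus strand: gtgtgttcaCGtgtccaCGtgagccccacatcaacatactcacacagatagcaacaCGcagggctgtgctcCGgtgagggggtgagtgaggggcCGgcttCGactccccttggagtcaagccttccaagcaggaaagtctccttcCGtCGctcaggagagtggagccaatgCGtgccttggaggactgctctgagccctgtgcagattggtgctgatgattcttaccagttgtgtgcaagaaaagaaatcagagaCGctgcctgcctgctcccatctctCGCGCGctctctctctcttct
OR5AS1, chr11:56027404-56027703, plus strand: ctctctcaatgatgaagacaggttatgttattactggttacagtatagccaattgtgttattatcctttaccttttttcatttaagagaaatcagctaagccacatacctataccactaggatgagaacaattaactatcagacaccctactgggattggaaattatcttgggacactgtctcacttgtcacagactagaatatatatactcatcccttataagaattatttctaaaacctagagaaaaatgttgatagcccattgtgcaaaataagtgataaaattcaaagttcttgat
The CG dinucleotide occurred 34 times in the window of TXN, 32 times in that of AASDHPPT, 16 times in that of GRM7, 15 times in that of COX7C, 13 times in that of OPCML and 0 times in that of OR5AS1. Windows with many CG dinucleotides were thus found both for genes with much RNA and for genes with little. The letters TATAAA, searched on both strands, were in the window of TXN and not in the windows of the other 5 genes.

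Of the 4743 selected bins, 2495 (52.6%) were 2-copy in 0 cells, 1315 (27.7%) in 1 cell and 933 (19.7%) in 2 cells. With 0 of 56 cells, a share of cells of up to 5.36% would still be possible from counting alone. At the threshold, the highest share inside was 4.65% of called cells and the lowest share outside was 5.36%, and 827 unselected bins were 2-copy in 3 cells. Missing calls were not frequent in these bins. All 56 cells had a call in 4519 selected bins (95.3%), against 84.6% of the other bins of the same chromosomes, and the fewest calls in a selected bin were 43. Over all selected bins, 3181 of 264939 calls (1.201%) were 2-copy, against 62.4% in the other bins.

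All 11 chromosomes held selected bins. The share was highest on chromosome 5 with 17.6% of its bins and on chromosome 20 with 17.3%, and lowest on chromosome 3 with 7.28% and chromosome 12 with 9.28%. The ends of the chromosomes were represented about as often as other positions, since 3.29% of selected bins and 3.43% of all bins lay within 3 Mb of a chromosome end.

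Adjacent selected bins formed 295 domains, with a median length of 360 kb (quartiles 80 and 900 kb). Of these, 56 were single bins. A small number of long domains held most of the sequence: the 67 domains of at least 1000 kb contained 62.2% of the selected bins, and the 21 domains of at least 2000 kb contained 30.1%. Single bins were not isolated from other late sequence. The 96 bins next to single-bin domains had a median 2-copy share of 5.36%, with a highest share of 19.6%, and 16 of the 56 single bins lay beside a gap in the table.

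**Figure D1:**
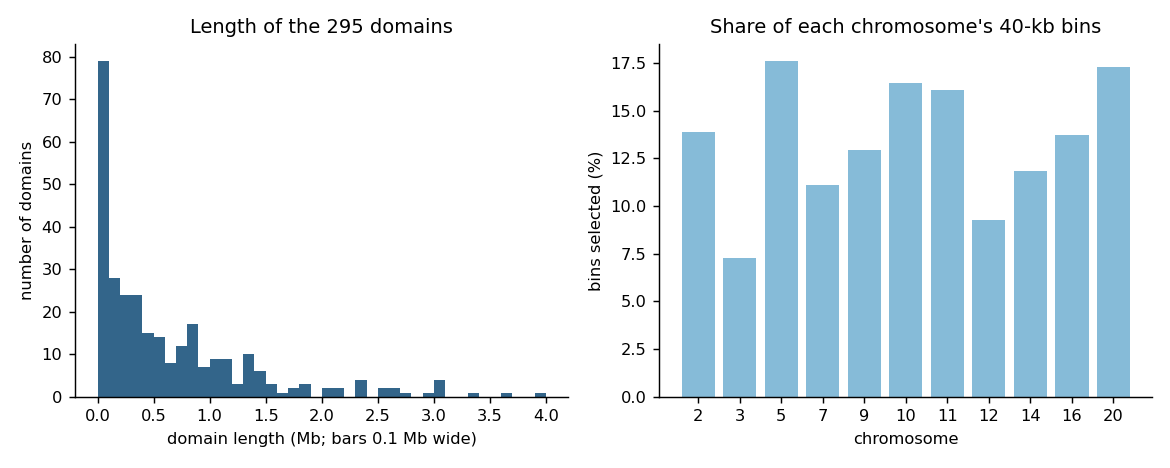
Left, the number of domains (y axis) by length in Mb (x axis, bars 0.1 Mb wide), where a domain is a run of adjacent selected 40-kb bins. Right, the percentage of each chromosome's bins that were selected (y axis) by chromosome (x axis), between 7.28% on chromosome 3 and 17.6% on chromosome 5.

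The longest domain, chr2:122600001-126560000 (hg38, 3960 kb), was built around CNTNAP5, a neurexin-family gene of 896 kb, which was the one protein-coding gene among the 23 genes inside it. In this domain 82 of 99 bins were 2-copy in no cell. The next longest domain, chr12:126400001-130040000 (3640 kb), ended at a gap of the table on its left and held 73 genes, of which 4 were protein-coding: TMEM132C, SLC15A4, GLT1D1 and TMEM132D. chr9:79120001-82520000 (3400 kb) held 37 genes, among them TLE4 and TLE1, transcriptional corepressors of the Groucho family. chr3:5360001-8440000 (3080 kb) was the domain of GRM7, and chr3:102480001-105520000 (3040 kb) held 9 genes with no protein-coding gene among them. chr5:83840001-86840000 (3000 kb) held EDIL3, a secreted integrin-binding protein gene, and COX7C. The 2-copy share within these 6 domains lay between 0.137% and 0.635% of calls. In the 5 bins next to them it lay between 7.14% and 24.4%.

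The share of 2-copy cells fell gradually across the borders rather than in a step. In the 140 domains of at least 400 kb, the mean share was 47.6% at 980 kb outside the border, 33.1% at 500 kb, 15.4% at 220 kb and 6.13% in the first bin outside. It was 2.91% in the first bin inside (280 borders) and 0.530% at 380 kb inside (182 borders). Only the longer of these domains reach that depth, so the fall inside mixes depth with domain length. The direction of this slope follows in part from the rule, since bins inside had to be low. Outside, the rule held only the first bin above 5%, and bins farther out could have any share, including selected bins of other domains. How far smoothing of the calls along the chromosome sets the width of the slope was not tested. Among the bins that the rule had already made low, the 2 outermost bins at each side were 2-copy in 2.58% of calls, and the deeper bins of the same domains in 0.775%. No cell was 2-copy in 11.3% of these outermost bins and in 64.6% of the deeper ones.

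**Figure D2:**
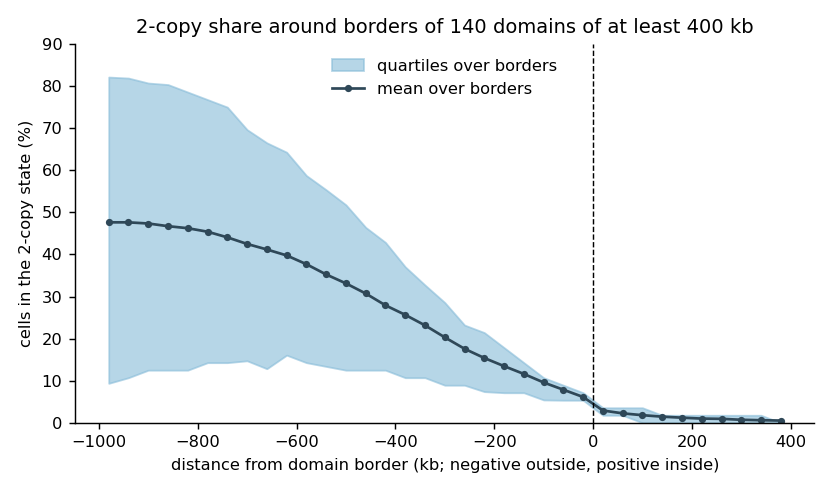
Percentage of cells in the 2-copy state (y axis) by distance from the domain border in kb (x axis, negative outside and positive inside), over the borders of the 140 domains of at least 400 kb. Points are means over borders and the band spans the quartiles. The mean falls from 47.6% at 980 kb outside to 0.530% at 380 kb inside. Only the longer domains reach 380 kb (182 borders, against 280 in the first bin inside).

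Every one of the 56 cells had at least 1 selected bin in the 2-copy state, but the number varied widely. The share of selected bins that a cell had replicated was 0.0423% at the lowest, 0.993% at the median and 5.33% at the highest. Cell MidS_059 had 2 such bins. Cell MidS_091 had 252 such bins in 61 domains, and was followed by cell MidS_109 with 155 bins in 30 domains (3.27%), cell MidS_089 with 132, and cells MidS_080 and MidS_073 with 130 each. These 5 cells together held 25.1% of the 2-copy calls in selected bins. 28 cells were above 1% and 8 cells above 2%.

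Cells that had replicated more of the other bins had in general also replicated more of the selected ones (Pearson's r = 0.65, Spearman's rho = 0.68, n = 56 cells). Without the 2 cells farthest from the median of the other bins, r was 0.67. Both axes come from the same DNA library and copy-state caller, so this is a description. The order was not strict. Cell MidS_109 had 66.4% of its other bins in the 2-copy state and 3.27% of the selected ones, whereas cell MidS_086 had 67.0% of its other bins and 0.338% of the selected ones. Cell MidS_091, the highest, had 77.4% of its other bins in the 2-copy state.

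The tables fall into 2 library sets, seen in the values and not named as a batch in the labels: 29 cells numbered up to 65 and 27 cells numbered above 65. The replicated share of the selected bins ran from 0.0423% to 2.32% in the first set (median 0.656%) and from 0.211% to 5.33% in the second (median 1.46%). The sets also differed in the share of all called bins that were 2-copy, with means of 50.7% and 56.4%, and the part of the set in the difference was not tested. Within the sets r was 0.66 and 0.62. When the 5% limit was applied to each set on its own, 71.3% of the bins selected in the first set were also selected in the second, and 87.3% of those selected in the second were also selected in the first.

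**Figure D3:**
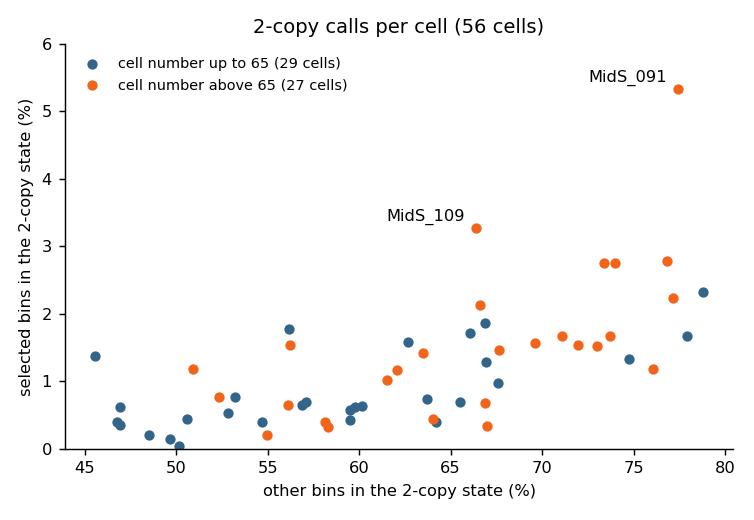
Percentage of the selected bins in the 2-copy state (y axis) against the percentage of all other bins of the 11 chromosomes in the 2-copy state (x axis), 1 point per cell, coloured by the range of the cell number. Cells MidS_091 (5.33%) and MidS_109 (3.27%) lie above all other cells.

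Where a cell was 2-copy inside a domain, the 2-copy stretch mostly continued beyond the border. The 2-copy calls formed 860 uninterrupted runs with a median length of 120 kb. Of these runs, 743 (86.4%), holding 84.2% of the calls, were joined to 2-copy bins outside the domain in the same cell. The states of the same cells set the borders, and 217 of the 860 runs covered a whole domain and so touched its border by construction, so this is a description. Runs that touched no border of their domain held 14.4% of the calls, and their median length was 160 kb and their longest 880 kb. The longest runs overall measured 1240 kb. One was in cell MidS_074 in chr9:118000001-119720000, and the other in cell MidS_109 in chr12:60360001-61760000, and both continued outside. Cell MidS_109 also had the 880-kb run, which stood alone within chr5:24800001-26320000.

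The few cells involved were not the same from bin to bin. The 933 bins replicated in 2 cells came from 300 different pairs of cells, and the most frequent pair, cells MidS_091 and MidS_109, accounted for 17 of them. In domains of at least 10 bins, a cell was 2-copy over the whole domain in 7 instances.

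Selected bins contained less GC than the rest. Their median GC content was 38.1% (quartiles 36.2 and 40.8%), against 40.04% (quartiles 37.3 and 43.9%) in the other bins and 42.6% in bins that were 2-copy in at least 95% of cells. The CG dinucleotide occurred 6.65 times per kb at the median, against 8.15 in the other bins and 11.6 in bins 2-copy in at least 95% of cells. Pooled over bins, GC content was lower in the selected bins on 11 of 11 chromosomes. The ranges overlapped widely, as 66.4% of the selected bins lay below the median of all bins. Bins just outside the rule, with 2-copy shares from 5 to 10%, had a median of 38.1%.

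The regions were poor in genes, and most of all in protein-coding genes. 2088 of 28340 genes on the 11 chromosomes (7.37%) lay whole inside the domains, on 13.1% of the bins. This was 11.01 genes per Mb inside and 20.9 per Mb over the remaining bins, with a lower density inside on 11 of 11 chromosomes. For protein-coding genes the densities were 1.63 and 7.26 per Mb. By class (GENCODE release 44, matched for 99.8% of genes), 309 of the genes inside were protein-coding (14.8% of them, against 34.8% of the genes not inside), 719 were lncRNA genes (34.4% against 28.2%) and 752 were pseudogenes (36.02% against 22.7%). 75 of the 295 domains held no whole gene, but each of the 67 domains of at least 1000 kb held from 4 to 73.

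Olfactory receptor genes, which encode the odour receptors of the nose and lie in clusters, were the largest family. Of 549 listed on these chromosomes, including pseudogenes, 166 (30.2%) lay inside 11 of the domains, and 90 of these were pseudogenes. Segments of the immunoglobulin and T cell receptor genes, which are joined only in lymphocytes, counted 27 of 200 inside (13.5%), in 2 domains. LINC RNAs counted 152 of 1072 (14.2%), in 68 domains. Genes of neuronal adhesion molecules counted 3 of 35 inside (CNTNAP5, NTM and OPCML) with 7 more lying across a border. Ion channels and transmitter receptors counted 9 of 116 inside and 7 across a border. For these lists the share of all genes inside, 7.37%, is the background. It differs by class, with 3.28% of protein-coding genes, 8.86% of lncRNA genes and 11.2% of pseudogenes inside. None of the 28 genes of common fragile sites, long genes prone to break under replication stress, lay whole inside, and 10 of the 28 lay across a border. Of all 28340 genes, 248 lay across a border. Their median length was 208510 bp, against 3978 bp for all genes. Long genes more often cross a border by the rule that every base must be inside, so these counts partly reflect gene length. Taste receptors (0 of 13), serpins (0 of 14) and proteasome subunits (0 of 22) had no member inside. Lists this short can have 0 members inside at the share of protein-coding genes. Cadherins had 1 of 83 (CDH11), and keratins (5 genes) and the UGT and cytochrome P450 families (4 of 58) had members inside that were all pseudogenes. Of the cytosolic ribosomal proteins 1 of 32 was inside, RPL10L, a retrogene known from testis, which was listed at 0 TPM in all 56 cells.

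Spliced RNA was found for few of the genes inside. A gene was called expressed when its value was above 0 in over 50% of cells. This held for 97 of 2088 genes inside (4.65%), against 22.6% of all genes on the 11 chromosomes and 24.04% of the genes not inside. The share was lower inside on 11 of 11 chromosomes, between 1.46% on chromosome 7 and 9.09% on chromosome 3. 1435 genes inside (68.7%) were listed at 0 TPM in all 56 cells, against 38.5% of the genes not inside. The share was also lower inside within each of the 3 main gene classes: 15.5% of protein-coding genes inside were expressed against 58.9% of the others, 5.42% against 9.59% of lncRNA genes, and 0.931% against 2.44% of pseudogenes. In a single cell between 77 and 146 of the genes inside reached 1 TPM (median 102.5), and together they gave 0.548 to 1.41% of the TPM of the 11 chromosomes (median 0.703%).

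Unspliced RNA, reads of the gene body outside exons, is given here as counts, although the deposited table is titled TPM. In it, 235 of the genes inside were expressed (11.3%), against 23.8% of all genes on the 11 chromosomes and 24.8% of those not inside. For protein-coding genes the shares were 28.8% inside and 48.8% outside. The 248 genes lying across a border were different. They were long, with a median of 208510 bp, and 77.4% of them were expressed in unspliced RNA and 17.7% in spliced RNA. WWOX, a fragile-site gene of 1113 kb on chromosome 16, was the highest of these, with 2, 1260 and 10859 unspliced counts as its lowest, median and highest values over the 56 cells. Its gene state was 2-copy in 0 of 56 cells, so a gene across a border can itself be called uncopied.

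**Figure D4:**
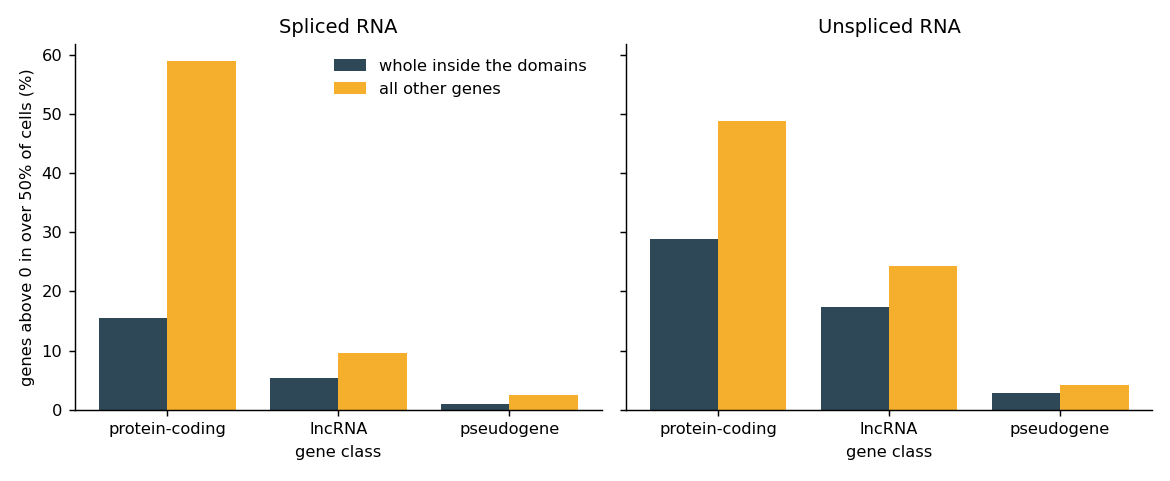
Percentage of genes above 0 in over 50% of cells (y axis) by gene class (x axis) for spliced (left) and unspliced RNA (right), in genes whole inside the domains (dark) and all other genes of the 11 chromosomes (yellow). In each of the 3 classes shown the share is lower inside, as for protein-coding genes with 15.5% against 58.9% in spliced RNA.

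Genes that were expressed inside the domains also had lower levels. The median spliced level of the expressed genes inside was 5.64 TPM (quartiles 1.07 and 22.1), against 19.9 TPM (quartiles 6.63 and 47.0) for expressed genes not inside. The difference of the medians of log10(TPM + 1) was -0.50. It was -0.31 when bins with 2-copy shares of up to 10% were selected, and 0 over all genes without the filter on expression, where both medians are 0. Computed cell by cell it ranged from -1.002 to -0.37 and was below 0 in 56 of 56 cells. For unspliced RNA the median was 0.85 counts inside and 3.39 counts not inside, the difference on the log10(count + 1) scale was -0.37 (0 without the filter, and -0.56 with a pseudocount of 0.1), and it was below 0 in 56 of 56 cells. The spliced difference was -0.53 in the first library set and -0.56 in the second, and the unspliced one -0.36 and -0.39. Cells share the same genes, so their number does not replicate the set of genes. Per length the gap in unspliced RNA was wider, at 7.35 counts per Mb of gene inside and 37.2 per Mb for the others, since expressed genes inside were longer (medians of 111183 and 68862 bp).

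The distance from the domain borders was also compared. The median distance from a gene to the nearest border was 219 kb for the 97 genes with spliced RNA and 221 kb for the others inside. The median lengths of the domains that held them were 1160 and 1120 kb. In unspliced RNA the medians were 249 kb for the 235 expressed genes and 217 kb for the others, in domains of 1320 and 1080 kb.

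Promoters differed between the genes of the domains that were expressed in spliced RNA and those that were not. In the same 300-base window, the 56 expressed genes with a promoter in the RefSeq table had a median of 20 CG dinucleotides. The 341 genes not called expressed had a median of 4. Some of these had spliced RNA in a minority of cells, such as TLE1, or unspliced RNA, such as HS3ST4. Among protein-coding genes the medians were 28 inside and 27 outside for expressed genes, and 4 inside and 9 outside for those not called expressed. The letters TATAAA were found on either strand in 3.57% of the windows of expressed genes inside and 20.2% of those not called expressed. The share was 9.36% of all windows on these chromosomes. None of the 54 olfactory receptor windows inside reached 10 CG dinucleotides, as did 67.8% of all windows.

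A small set of housekeeping genes stood out by their spliced levels. COX7C (chr5:86617928-86620962) encodes a subunit of the last complex of the respiratory chain, and its lowest, median and highest values over 56 cells were 259.2, 684.5 and 1037 TPM. Its gene state was 2-copy in 0 of 56 cells, and the gene lay 219 kb from the border of the 3000-kb domain printed above. TXN (chr9:110243810-110256507), a thiol-reducing protein, had 157.0, 376.3 and 774.5 TPM. The medians in the first and second library sets were 634.9 and 772.3 TPM for COX7C and 324.3 and 453.6 TPM for TXN. These 2 genes gave 36.3% of the TPM of all genes inside at the median over cells, with a range of 14.97 to 49.9%. SEC61G (chr7:54752250-54759974), a subunit of the channel for protein entry into the endoplasmic reticulum, had 16.7, 120.4 and 354.9 TPM. These 3 genes were above 0 in all cells and were the only ones of the 2088 genes inside with a median of 100 TPM or more. Of the 26252 genes not inside, 647 reached that median. Among expressed genes it was 3 of 97 inside and 647 of 6312 not inside.

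AASDHPPT (chr11:106075501-106098699) lay 581 kb from the nearest border, with 0, 62.3 and 108.7 TPM as its lowest, median and highest values. In the 21 bins centred on its start no cell was 2-copy. It thus combined spliced RNA in 55 cells with DNA that was called uncopied within 400 kb on each side in all 56 cells. SPIN1, a reader of histone marks, had 16.7, 64.5 and 161 TPM. SNRPB2, a protein of the U2 splicing particle, had 5.41, 40.6 and 127 TPM. RFK, riboflavin kinase, was less even: its median was 43.7 TPM, its highest value 269 TPM, and it was at 0 in 7 of 56 cells.

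CRBN (cereblon, the substrate receptor of a ubiquitin ligase) and TRNT1 (the enzyme that adds CCA ends to tRNA) overlap in chr3:3126933-3179727. Their medians were nearly equal, with 41.3 TPM for CRBN and 41.2 TPM for TRNT1. Their ranges were not, as TRNT1 reached 122 TPM, while CRBN reached 2123 TPM in cell MidS_026, 1454 TPM in cell MidS_005 and 616 TPM in cell MidS_091. Both genes were 2-copy in 1 cell, cell MidS_071, so the high values of CRBN were in cells that carried 1 copy. The transcribed pseudogene GUSBP1 had a median of 69.8 TPM, and reads that fit its parent gene GUSB or other copies make this value uncertain. Of the lncRNA genes, RP11-259O2.3 had a median of 50.5 TPM, with 75.5 in the first set of libraries and 35.5 in the second, and RP11-373N22.3 a median of 49.4 TPM, with 66.2 and 37.6. These 12 genes lay at very different depths. The nearest border was 649 kb from TRNT1, 620 from CRBN, 581 from AASDHPPT, 346 from RFK, 232 from SEC61G and 219 from COX7C. It was 168 kb from RP11-373N22.3, 83.8 from TXN, 57.4 from SNRPB2, 41.3 from SPIN1, 10.6 from GUSBP1 and 8.09 from RP11-259O2.3.

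**Figure D5:**
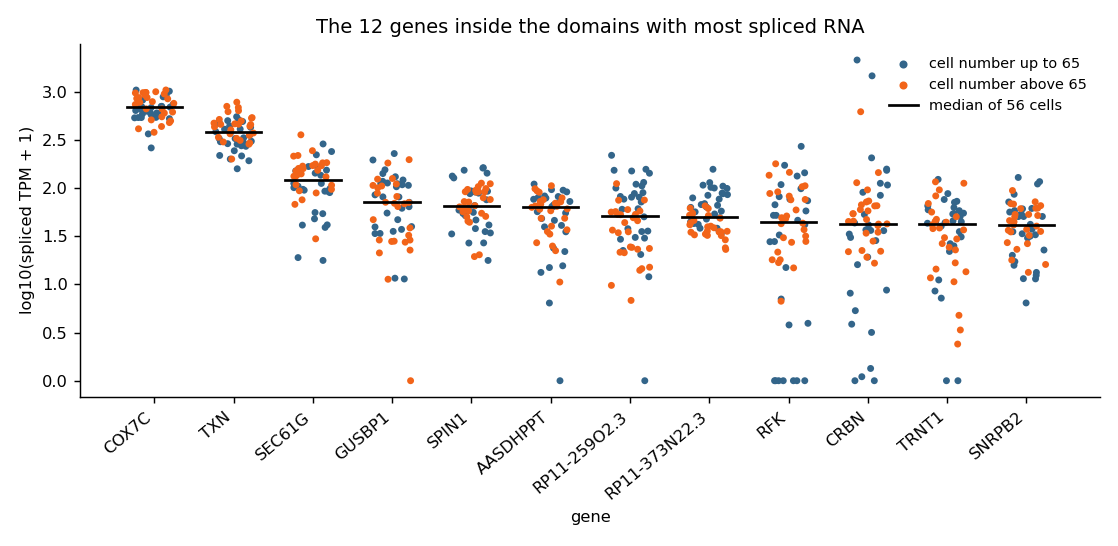
Spliced RNA as log10(TPM + 1) (y axis) of the 12 genes whole inside the domains with the highest median (x axis), 1 point per cell (56 cells), coloured by the range of the cell number, with a bar at the median. COX7C and TXN lie above the others in nearly all cells, and CRBN has 3 cells above 600 TPM.

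The genes with most unspliced RNA were mostly other genes. HS3ST4, a heparan sulfate sulfotransferase on chromosome 16, had 106.2, 318 and 848 unspliced counts as its lowest, median and highest values, and was listed at 0 TPM in spliced RNA in all 56 cells. Its median was 194 counts in the first library set and 432 in the second. The lncRNA gene CTD-2337L2.1, which lies within it on the same strand, had nearly the same counts (105.2, 317 and 847), so the reads of the 2 genes cannot be told apart. HS3ST4 also spans the pseudogenes HMGN2P3 and HSPE1P16, and CTD-2337L2.1 spans HMGN2P3. Whether reads that fit the parent genes of these pseudogenes add to the counts was not tested. Of the 10 genes inside with the highest unspliced medians, 9 overlapped another annotated gene. RP11-847H18.2 (median 234 counts, 0 TPM in all cells) overlaps ALG10, whose median was 16.5 TPM. RP11-677I18.3 (median 112.8 counts) lies opposite AASDHPPT. ZFP91-CNTF (145 counts) is a readthrough gene over ZFP91, whose median was 25.1 TPM, and PLD5P1 (111.2 counts) overlaps ZNF37A. The sources used here do not say whether counting took the strand into account, so these counts are uncertain. The one gene without an overlap was NAALAD2, an enzyme that cleaves N-acetylated dipeptides, with 0, 84.7 and 660 counts and a spliced median of 22.6 TPM.

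The longest genes inside included adhesion molecules and receptors of neurons, and they had traces of unspliced RNA. OPCML (1118 kb) had 0.4, 4.16 and 141 unspliced counts, and a spliced value above 0 in 1 cell. NTM, its neighbour and relative, had 0.8, 3.04 and 204 counts, and was at 0 TPM in all cells. CNTNAP5 had 1.85, 8.94 and 38.6 counts, MDGA2 (a synaptic adhesion regulator) had 1.1, 8.06 and 90.95, SORCS1 (a sorting receptor) had 0.8, 4.08 and 64.1, and TMEM132D had 1, 6.6 and 244. All of these were 2-copy in 0 of 56 cells. Each was above 0 in all 56 cells, at levels of a few counts over gene bodies of over 500 kb.

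Single cells had counts far above that level for some of these genes. NRG3 (neuregulin 3, 1112 kb) had a median of 6.62 counts and a highest value of 2370 counts in cell MidS_057, which held 75.3% of its counts over all cells, while the next cell, cell MidS_104, had 155. GRM7 had a median of 10.3 counts and 2312 in cell MidS_069, 1568 in cell MidS_017 and 710 in cell MidS_079. GABRB2, a subunit of the GABA receptor, had a median of 0.6 and reached 572 counts in cell MidS_061 and 506 in cell MidS_055. In all of these cells the gene was called 1-copy. The spliced level stayed low in them, at 0 TPM for NRG3 in cell MidS_057, 3.75 TPM for GRM7 in cell MidS_069 and 7.56 TPM for GABRB2 in cell MidS_061. Such genes were not particular to the domains. 17 of the 235 genes inside (7.23%) had over 50% of their unspliced counts in 1 cell, against 316 of 6518 (4.85%) of the others. Among genes with medians under 10 counts the shares were 8.13% and 7.42%.

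Olfactory receptor genes had little spliced RNA inside and outside the domains. 133 of the 166 inside (80.1%) were at 0 TPM in all cells, against 68.7% of all genes inside and 69.2% of the 383 olfactory receptor genes not inside. 2 of the 166 and 10 of the 383 were expressed in spliced RNA. OR5AS1 was above 0 in 55 of 56 cells, with a median of 1.63 and a highest value of 6.60 TPM, and OR51M1 in 30 cells with a median of 0.28 TPM. OR51M1 overlaps OR51B5 and the annotated bodies of the globin genes HBE1 and HBG2. 26 of the 27 immunoglobulin and T cell receptor segments inside (96.3%) were at 0 TPM in all cells, as were 95.95% of those not inside. Of the 9 ion channel and transmitter receptor genes inside, 7 were expressed in unspliced RNA and 1 in spliced RNA. The gene with spliced RNA was GABRP, the pi subunit of the GABA receptor, with 0, 28.05 and 178 TPM. Of the other genes on this list of 116, 58 were expressed in unspliced and 28 in spliced RNA. For this small list the unspliced share was thus higher inside, unlike the share over all genes, and the spliced share was lower. Of the 152 LINC RNAs inside 15 were expressed in spliced and 41 in unspliced RNA, against 84 and 257 of the 920 not inside. For LINC RNAs the shares inside and not inside were thus close in both kinds of RNA. Over all lncRNA genes they were lower inside, with 5.42% against 9.59% in spliced and 17.4% against 24.4% in unspliced RNA. LINC02241 led the LINC RNAs inside in unspliced RNA with a median of 84.9 counts. As a check of the cells, the S-phase and proliferation genes PCNA, MKI67, TOP2A and MCM2 were above 0 in all 56 cells, with medians from 158 to 718 TPM, and the epithelial marker EPCAM was above 0 in 2.

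The last question was whether the RNA of these genes differed in the few cells that had copied them. Expressed genes whose state was 2-copy in at least 2 cells and 1-copy in at least 2 cells were compared between the states by an exact permutation form of the two-sided Wilcoxon rank-sum test, fitted over all genes of the table. Each tested gene inside had exactly 2 cells in the 2-copy state, for which the smallest possible p is 0.0013. To pass 0.05 after adjustment at that p, 161 genes in spliced and 184 in unspliced RNA would have to reach it, and 17 did in each. No gene inside could therefore pass after adjustment, whatever its difference. In spliced RNA, 1 of 15 tested genes inside had p under 0.05, against 7.04% of all 6176 genes tested. In unspliced RNA it was 0 of 19, against 6.03% of 7065 genes. After Benjamini-Hochberg adjustment over all genes, no gene of the table passed 0.05 in this test, which says nothing about the genes inside (435 genes in spliced and 426 in unspliced RNA had an unadjusted p under 0.05). By edgeR's quasi-likelihood test on the unspliced counts, 184 of 7065 genes passed after adjustment with TMM scaling and 181 with DESeq2 size factors. Of the 19 tested genes inside, 0 passed. At that share over all genes, 0 of 19 is not a result about the domains. Without adjustment, p was under 0.05 for 1 of 19 genes inside, against 13.2% of all genes with either scaling.

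The gene with the low p was ZNF37A, a zinc finger gene on chromosome 10. Its 2-copy cells had 2.54 TPM (cell MidS_054) and 0.22 TPM (cell MidS_109), and its 54 cells with 1 copy had a median of 15.99 TPM, with values from 0 to 64.8 (exact permutation p = 0.026, adjusted p = 0.62). The 2 values were thus low but within the range of the 1-copy cells. With ranks taken within the library sets the exact permutation p was 0.054. DOCK1, an activator of the GTPase Rac, had 11.4 TPM in cell MidS_094 and 18.5 TPM in cell MidS_095, its 2-copy cells, and a median of 27.2 TPM in the 1-copy cells (exact permutation p = 0.19, adjusted p = 0.83), and the exact p was 0.023 with ranks within the sets. In unspliced RNA both cells were at 0 against a median of 39.5 counts (exact permutation p = 0.19, adjusted p = 0.92), and 1-copy cells were also found at 0. UXS1, an enzyme of UDP-xylose synthesis named here after its values were seen, went the other way in 1 cell: cell MidS_106 with 2 copies had 604 unspliced counts, the highest of all 56 cells, while the other 2-copy cell, cell MidS_021, had 1.53 (exact permutation p = 0.40, adjusted p = 0.96).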

How the data were processed

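Each sorted mid-S HAP1 cell gave a DNA and an RNA library. Of 63 such cells in the labels, 56 have columns in the tables. The other 7, and 5 DNA libraries from G1, were not used here. The cells are from 1 experiment, and p-values measure the spread between its cells.

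The authors aligned DNA reads with BWA to hg38 (the submitters' processing notes give 0.7.17-r1188), corrected mappability with G1 cells, and called 40-kb bins with AneuFinder. The deposited score codes 2-copy, 1-copy or no call per bin and gene. Blacklisted regions and 3 chromosomes were removed. DNA read depth is unknown here.

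The authors counted RNA with ramdaq. Spliced RNA is deposited as TPM. For unspliced RNA the authors subtracted exon reads from gene-body reads and set negative values to 0. The deposited table is titled TPM, but its values are fractional and its totals ran from 425181 to 1353931 per cell. They were therefore treated here as estimated counts of the authors, with the unit uncertain. RNA came from the supernatant, and RNA kept in the nucleus may be under-represented.

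Genes counted as inside when every base lay in a run of adjacent selected bins. Levels were compared as log10(value + 1). The copy-state test was an exact permutation Wilcoxon test with Benjamini-Hochberg adjustment over all genes, checked on simulated data. edgeR 4.0.16 (quasi-likelihood) with TMM or DESeq2 1.42.0 size factors, on rounded counts, was an alternative. Other tools were Python 3.11.15, numpy 2.4.6, pandas 2.3.3 and scipy 1.17.1. Named genes were, among those inside, the 12 highest in spliced RNA, the 10 highest in unspliced RNA, the 10 longest, the 5 with the lowest p of each RNA kind, the 3 longest of each of the 6 longest domains, and the leading members of each gene list. The bins and gene lists were chosen with earlier results of these data known.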

Additional observations from a re-analysis of the deposited data

How the results depend on the processing

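The number of selected bins stayed within 1.5 times of 4743 under each setting tried: 3800 with a limit of 2%, 6918 with 10%, 4739 with at least 45 called cells, 4745 with cells scored 40 to 70%, 5966 and 4872 in the library sets alone and 4907 without cell MidS_091, a setting chosen after seeing the data. The median domain length was 520 kb with gaps up to 80 kb joined and 480 kb with the 10% limit. With genes assigned by their midpoint, 5.13% of those inside were expressed in spliced and 14.6% in unspliced RNA. The unspliced share of the other genes was then 24.6%. The difference of the median spliced level, -0.50 on the log10 scale, was -0.31 with the 10% limit and 0 without a filter on low values, where both medians are 0. The unspliced difference, -0.37, was -0.56 with a pseudocount of 0.1 and 0 without the filter. It was -0.013 per kb of gene length, where nearly all values lie far below the added 1, and -0.66 per Mb of gene length, chosen after seeing the data. Of the genes inside, edgeR gave 1 gene (DOCK1) with p under 0.05 in unspliced RNA with TMM and 1 with DESeq2 size factors, against 0 in the rank test and 13.2% of all genes under either scaling, and 0 after adjustment. Over all 7065 genes tested edgeR gave 184 adjusted calls with TMM and 181 with DESeq2 size factors, against 0 in the rank test, and the cause was not tested. No result reversed under these settings. No paired analysis was possible because a shared number joins the DNA and RNA library of 1 cell, which the copy-state test uses to match state and RNA, and no groups of cells share numbers.

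A gene with 2 cells in the 2-copy state could not pass the adjusted rank test here, so that test does not show whether RNA changed with copy number inside the domains. Copy states are calls over 40-kb bins smoothed along the chromosome, and adjacent bins are not independent. The depth of the DNA libraries is unknown here. The authors corrected mappability with G1 cells, but the G1 libraries were not analysed here. Whether a low copy number in the line itself remains in some regions after that correction was not tested apart from late replication.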
